A study of Arabidopsis thaliana with 18 samples.

Results

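The 96 genes described here were at 25% or less of their mock level in wild-type roots after 8 h of abscisic acid (ABA). They were chosen from the wild-type libraries of an RNA-seq study of Arabidopsis thaliana, the thale cress. A gene was a member if its mean in mock-treated Col-0 roots was at least 5 CPM (counts of a gene, with a library's reads scaled to a total of 1000000) and its mean in ABA-treated Col-0 roots was at most 25% of that. Of 32833 loci in the table, 15206 reached 5 CPM in Col-0 mock and 102 of these, or 0.671%, met the ratio. From the 102, 6 genes were left out by name, namely the ABA receptor genes PYL4, PYL5 and PYL6, the peroxidase gene AT5G64120, the auxin-conjugating enzyme gene AT2G23170 and the coumarin synthesis gene AT3G13610. The Col-0 values therefore chose the members and are given as a description, with no test.

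The study compared roots of 5-day-old seedlings, each sample being a pool of 50 to 100 seedlings moved to plates with 1 µM ABA or to mock plates for 8 h. Per the labels, the genotypes were Col-0 as wild type, a triple mutant in VND1, VND2 and VND3 (vnd123) and a mutant in VND7 (vnd7), with 3 libraries for each genotype and treatment and 18 in all. The labels give no allele names, no other mutation and no sign that the numbered replicates were separate experiments, and the p-values below reflect the spread of these samples alone, part of which can be technical. VND1, VND2 and VND3 lay at 0 to 0.378, 0.455 to 0.806 and 1.26 to 1.7 CPM in vnd123 and at 0.496 to 1.52, 1.5 to 4.03 and 3.69 to 6.0 CPM in Col-0. VND7 lay at 0.223 to 0.616 CPM in vnd7 and at 2.2 to 5.63 CPM in Col-0. The 12 mutant libraries played no part in choosing the members, so the ABA response was tested in them.

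ABA is the hormone of drought and osmotic stress. It binds receptors of the PYR/PYL family, which then block clade A protein phosphatases and so free SnRK2 kinases that act on transcription factors and channels. In roots ABA slows growth, promotes suberin and changes water and ion transport, and many genes fall while the stress genes rise. The VND family of NAC transcription factors drives the formation of xylem vessels. In RNA from pooled root samples, fewer cells of a type and less RNA per cell cannot be told apart.

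The members were a small, mostly low part of the transcriptome. They ranged from 5.05 to 901 CPM in Col-0 mock with a median of 16.6 CPM; 31 were under 10 CPM, 55 between 10 and 100 CPM and 10 at 100 CPM or more. Their reads together made up 0.453% of the counts in Col-0 mock and 0.0825% in Col-0 ABA. The level left in Col-0 ABA ran from 1.42% to 25% of mock with a median of 17.4%, against a median of 94.6% over all loci of at least 5 CPM. Of the 96, 95 code for proteins and 37 have a symbol in the RefSeq annotation. In Col-0, every ABA library was below every mock library for 95 members, the exception being the non-coding locus AT1G25098. Near the limit of the rule, AT1G35350, RLP12 and AT5G14730 kept 24.7%, 24.9% and 25%, while AT1G21140, LBD4 and GulLO5 just missed it with 25.1%, 25.4% and 25.5%.

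**Figure D1:**
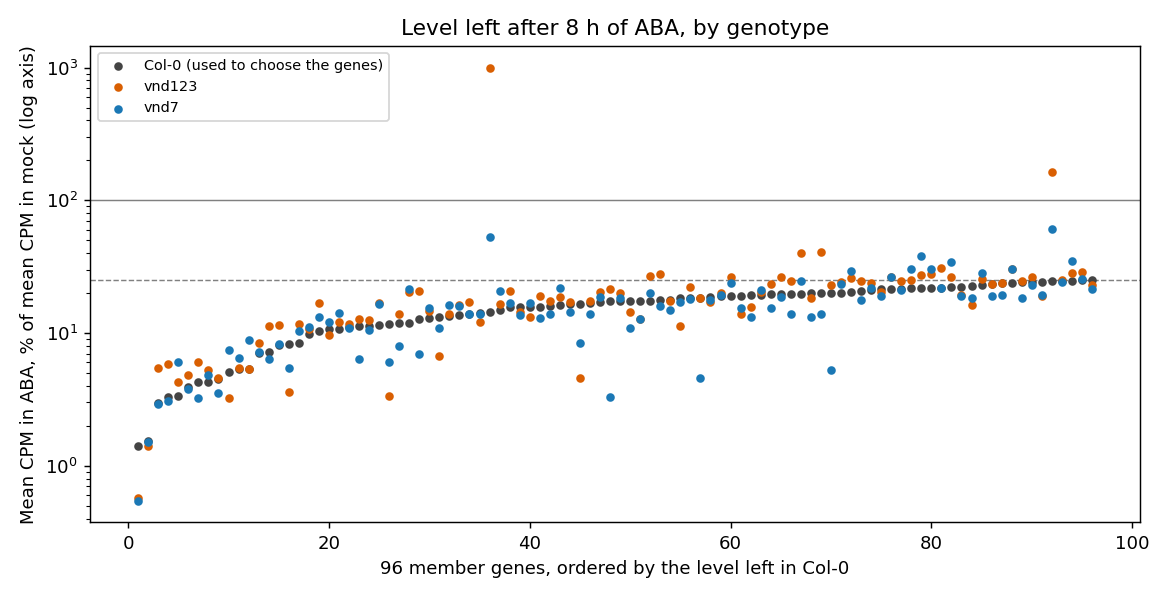
Mean CPM in ABA as a percentage of mean CPM in mock (log axis) for the 96 members, ordered by the Col-0 value; the dashed line is 25% and the solid line 100%. Col-0 lies at or under 25% because the rule required it; in vnd123 and vnd7, which the rule did not use, 76 and 84 of the 96 members also do, and AT5G50550 in vnd123 stands far above 100%.

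The fall with ABA was also seen in nearly all members in both mutants. In edgeR's quasi-likelihood test on the 12 mutant libraries, with a Benjamini-Hochberg adjusted p under 0.05 over all 20720 genes tested, 94 of 96 members were called lower in vnd123, 1 was called higher and 1 was not called. The share of all genes called lower in vnd123 was 14.6%. In vnd7, 93 members were called lower, 0 higher and 3 were not called, against 15.6% of all genes called lower. At an unadjusted p under 0.05, 0 members were higher in vnd7 as well, and DESeq2 called 93 lower in each mutant. The median log2 change of the members was -2.44 in vnd123 and -2.64 in vnd7, against -0.01 and -0.02 over all genes tested. All 96 members passed the filter on low counts, and 93 were lower in both mutants.

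The size of the fall can be read against the limit that defined the set in wild type. In vnd123, 76 of 96 members (79.2%) were at 25% or less of mock, against 0.627% of the loci with at least 5 CPM in that genotype. In vnd7, 84 members (87.5%) were, against 0.708%. Of the 96, 75 were at or under 25% in both mutants, 1 in vnd123 alone, 9 in vnd7 alone and 11 in neither, and 94 were at or under 50% in each mutant. The ABA libraries lay wholly below the mock libraries for 93 members in each mutant, against 30.4% of loci in vnd123 and 31.8% in vnd7. Across the 96 members, the log2 changes in vnd123 and vnd7, which come from different libraries but the same 96 genes, had a Spearman rho of 0.815 and a Pearson r of 0.808.

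**Figure D2:**
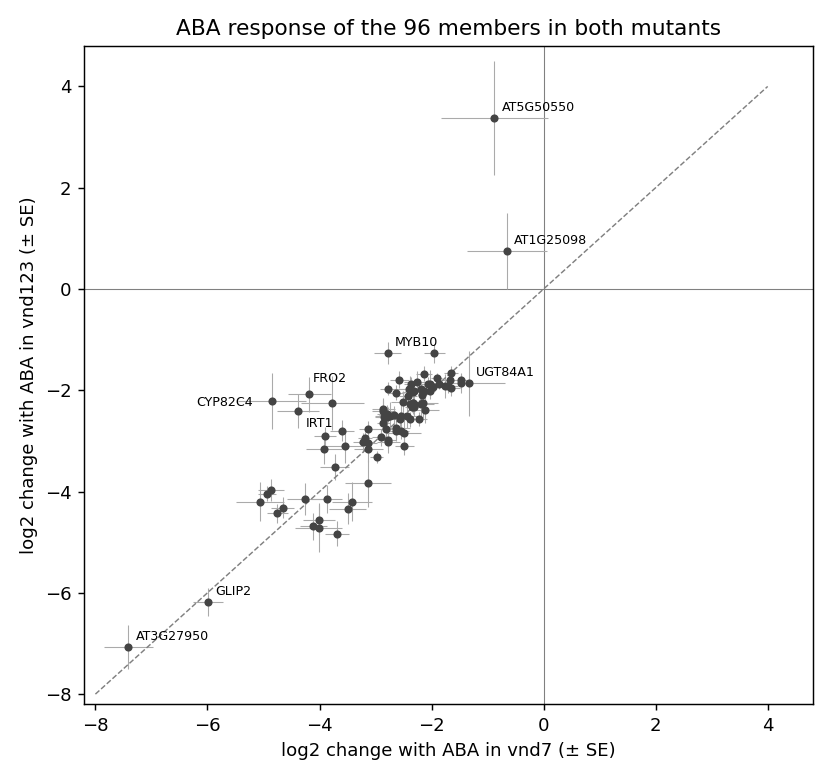
Log2 change with ABA ± SE in vnd7 (x axis) and vnd123 (y axis) for each of the 96 members; the dashed line marks equal change. Most points lie near the line between -2 and -5, AT3G27950 and GLIP2 lie at the lower end, and AT5G50550 and AT1G25098 are the only points above 0 in vnd123.

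The lowest ratios of ABA to mock in Col-0 were those of AT3G27950, GLIP2, GSTF14 and AT3G46400. AT3G27950, a gene for a GDSL-type lipase, went from 10, 10.5 and 10.2 CPM in Col-0 mock to 0.173, 0.157 and 0.107 CPM in ABA, so that 1.42% was left. In vnd123 it read 9.1, 7.5 and 8.83 CPM in mock and 0.145, 0.0 and 0.0 CPM in ABA, and in vnd7 10.9, 10.4 and 7.44 CPM in mock and 0.0346, 0.101 and 0.0209 CPM in ABA. No ABA library came near a mock library, and the ABA groups of the mutants rest on 8 reads each. The log2 change was -7.07 ± 0.44 (SE) in vnd123, with an adjusted p of 1.18e-08 by edgeR, and -7.41 ± 0.43 in vnd7, with an adjusted p of 5.53e-09.

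GLIP2, which codes for a secreted GDSL lipase with antimicrobial activity, kept a similar share in Col-0 from a higher start, and its log2 change was smaller in both mutants. It read 28.5, 26.6 and 24.3 CPM in Col-0 mock and 0.346, 0.313 and 0.555 CPM in ABA. In the mutants 1.41% was left in vnd123 and 1.51% in vnd7, close to the 1.53% of Col-0. Its log2 change was -6.18 ± 0.27 in vnd123 and -5.99 ± 0.26 in vnd7, with edgeR adjusted p of 3.04e-10 and 1.99e-10. GSTF14, a glutathione transferase gene of the phi class, went from 13.1, 13.2 and 9.38 CPM to 0.321, 0.391 and 0.341 CPM in Col-0 and kept 5.44% in vnd123 and 2.91% in vnd7.

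The DNA just before the start of these 3 genes is shown because they had the lowest ratios of ABA to mock in Col-0. Each sequence is the 250 bases before the annotated start, read 5′ to 3′ on the gene's own strand (the plus strand in all 3) from RefSeq's TAIR10.1 genome by its own annotation; the build behind the count table is not given in the sources used here. Capitals mark matches, on either strand, to ACGTG (the core of the ABA response element), CACGTG (G-box), CCGAC (the core of the dehydration response element), TTGAC (the W-box core bound by WRKY factors), TGTCTC (auxin response element) or AGATT (the core bound by type-B response regulators of cytokinin); adjoining matches run together.
AT3G27950, chr3:10377707-10377956: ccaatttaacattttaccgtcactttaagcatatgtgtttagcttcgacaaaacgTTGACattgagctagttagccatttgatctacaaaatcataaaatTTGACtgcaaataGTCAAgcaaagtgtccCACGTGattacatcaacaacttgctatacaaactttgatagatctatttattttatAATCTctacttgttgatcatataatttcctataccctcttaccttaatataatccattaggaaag
GLIP2, chr1:20142894-20143143: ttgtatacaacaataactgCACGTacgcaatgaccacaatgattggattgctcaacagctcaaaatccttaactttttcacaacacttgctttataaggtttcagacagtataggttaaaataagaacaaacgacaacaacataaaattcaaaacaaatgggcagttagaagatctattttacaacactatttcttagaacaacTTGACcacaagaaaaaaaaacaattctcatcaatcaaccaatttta
GSTF14, chr1:18458276-18458525: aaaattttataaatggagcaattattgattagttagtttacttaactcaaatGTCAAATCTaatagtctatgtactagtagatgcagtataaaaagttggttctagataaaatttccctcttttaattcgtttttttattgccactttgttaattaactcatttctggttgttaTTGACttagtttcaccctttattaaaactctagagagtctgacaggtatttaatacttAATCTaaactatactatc

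All 3 windows hold at least 1 W-box core. Over the 95 members with a promoter window of 250 bases before to 50 bases after the start, TTGAC was present on either strand in 74.7%, against 50.5% of all 27443 windows and 51.1% of the 15127 windows of genes at 5 CPM or more in Col-0 mock. ACGTG was present in 35.8% of the members' windows, against 26.7% of all windows, and TATAAA, the TATA box, in 62.1% against 52.1%. CACGTG, which contains ACGTG, was present in 6.32% against 7.68%, CCGAC in 10.5% against 15.0%, TGTCTC in 14.7% against 14.2% and AGATT in 63.2% against 69.7%. These shares are descriptions of letters in a window and were not tested.

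Receptor-like and other protein kinases gave 9 members, and all 9 were called lower in both mutants. Of all 96 members, 97.9% were called lower in vnd123 and 96.9% in vnd7. Such counts, here and for the families below, therefore do not set a family apart. Receptor kinases with leucine-rich repeats sit in the plasma membrane and sense ligands outside the cell. AT1G05700 read 33.3, 31.6 and 35 CPM in Col-0 mock and 1.51, 0.913 and 1.88 CPM in ABA, with changes of -3.97 ± 0.21 in vnd123 and -4.86 ± 0.23 in vnd7. AT3G46400 went from 14.1, 13.5 and 13.1 CPM to 0.272, 0.704 and 0.363 CPM and changed by -4.04 ± 0.15 in vnd123 and -4.94 ± 0.16 in vnd7, with edgeR adjusted p of 7.37e-11 and 1.23e-11. In both genes the ABA libraries of each genotype lay far below the mock libraries. AT5G59680, AT5G49770 and AT4G20450 are of the same kind and kept 20.3%, 10.7% and 26.5% in vnd123.

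Other kinase and receptor members spanned a wide range. AT1G66930, of the protein kinase superfamily, kept 11.4% in vnd123 and 8.32% in vnd7. RLP12, a receptor-like protein without a kinase domain, kept 28.8% in vnd123 and 25.5% in vnd7, with log2 changes of -1.75 ± 0.10 and -1.91 ± 0.10. CPK27, a calcium-dependent kinase, kept 26.2% and 22.9%. Over the whole family, 175 of 761 tested genes (23.0%) were called lower in vnd123 and 114 higher, and 182 (23.9%) were called lower in vnd7 and 146 higher. The median log2 change of the family was -0.07 in vnd123 and -0.03 in vnd7, and genes of the family moved both ways.

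Genes described as disease resistance or defence proteins gave 4 members, all called lower in both mutants. AT4G22212, which codes for a defensin-like protein, read 225.0, 224.0 and 194.0 CPM in Col-0 mock and 22.6, 22.3 and 23.7 CPM in ABA. Its groups were tight in every genotype, and the change was -3.32 ± 0.12 in vnd123 and -2.98 ± 0.12 in vnd7, with edgeR adjusted p of 7.38e-11 and 1.4e-10. The dirigent-like gene AT4G11190 kept 25.9% in vnd123 and 29.4% in vnd7, and the NBS-LRR disease resistance gene AT5G38350 kept 16.2% and 18.3%. Of 216 tested genes whose description names disease resistance or defence, 69 (31.9%) were called lower and 31 higher in vnd123, and 60 (27.8%) lower and 33 higher in vnd7.

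General immune genes were looked at beside them. Of 10 immune receptor and response genes (FLS2, EFR, BAK1, FRK1, WRKY33, WRKY70, PR1, PR2, PR5 and PDF1.2), 0 were members and 6 could be tested. PR1, PR2, PR5 and PDF1.2 were at 0 in all libraries. WRKY70, a regulator of salicylate responses, was called lower in both mutants, at -0.57 ± 0.15 in vnd123. FRK1, a flagellin-induced receptor kinase gene, was called higher in both, at 1.66 ± 0.32 in vnd123. Its level there was low, with means of 0.465 CPM in mock and 1.42 CPM in ABA. The other 4 tested genes were not called in either mutant.

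Enzymes that make or remove reactive oxygen were among the members. RBOHB, which codes for an NADPH oxidase of the plasma membrane, read 55.7, 62.2 and 54.4 CPM in Col-0 mock and 11.2, 10.7 and 10.8 CPM in ABA, and changed by -2.28 ± 0.13 in vnd123 and -2.31 ± 0.13 in vnd7. Of 8 tested NADPH oxidase genes, a list made after the members' values were seen, 6 were called lower and 1 higher in vnd123, and 5 lower and 1 higher in vnd7; the higher gene was RBOHE in both, at 0.87 ± 0.08 and 1.08 ± 0.08. The secreted peroxidase gene Prx37 read 63.1, 61.9 and 61.1 CPM in Col-0 mock and 12.7, 15.8 and 17.2 CPM in ABA, with nearly the same levels in both mutants. Its change was -1.94 ± 0.07 in vnd123 and -1.98 ± 0.07 in vnd7, with edgeR adjusted p of 8.97e-11 and 6.12e-11. The peroxidase genes AT5G64110 and AT1G49570 kept 6.76% and 17.2% in vnd123. Reads of RBOHB and of a gene on the opposite strand that overlaps it (8284 and 7619 reads in Col-0 mock) cannot be told apart where they overlap, because the library kit does not mark strand.

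Aliphatic glucosinolate synthesis gave 3 members, CYP83A1, CYP79F2 and IPMI1. Aliphatic glucosinolates are sulphur-rich defence compounds made from methionine, whose side chain is first lengthened and then turned by P450 enzymes into the core structure. CYP83A1, the P450 of the second core step, read 32.9, 28.5 and 38.8 CPM in Col-0 mock and 1.56, 1.72 and 2.11 CPM in ABA. In vnd123 it read 36.1, 51.4 and 44.0 CPM in mock and 2.23, 2.9 and 2.08 CPM in ABA, and in vnd7 27.5, 39.7 and 46.1 CPM and 3.84, 2.09 and 1.36 CPM. The mock libraries of the mutants varied, yet all lay far above the ABA libraries. Its change was -4.15 ± 0.28 in vnd123 and -3.87 ± 0.28 in vnd7, with edgeR adjusted p of 3.46e-08 and 4.69e-08.

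The other pathway members fell less deeply. CYP79F2, the P450 of the first core step, kept 18.6% in vnd123 and 22.0% in vnd7. IPMI1, a subunit of the isomerase that works in side-chain lengthening, kept 20.2% and 21.0%. The member AK3 was not in the pathway list. It codes for an aspartate kinase that opens the route from aspartate to methionine, threonine and lysine. AK3 went from 14.2, 14.5 and 22.4 CPM in Col-0 mock to 4.64, 3.34 and 3.84 CPM in ABA. It kept 25.6% in vnd123 and 28.2% in vnd7.

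The fall reached along the pathway beyond the members. Of 18 pathway genes, a list made after the members' values were seen, 15 could be tested; 13 were called lower and 0 higher in vnd123, and 14 lower and 0 higher in vnd7. The median log2 change of the list was -1.56 in vnd123 and -1.57 in vnd7. These counts and medians include the 3 members, which were chosen for their fall in Col-0. Non-members such as BCAT4, which starts side-chain lengthening, changed by -2.25 ± 0.26 in vnd123, the plastid carrier gene BAT5 by -1.56 ± 0.12 and the isopropylmalate dehydrogenase gene IMDH1 by -1.87 ± 0.13. MYB28, the transcription factor that switches the pathway on, changed by -0.99 ± 0.12 in vnd123 and -0.99 ± 0.12 in vnd7. The late sulphotransferase gene SOT17 was not called, at 0.17 ± 0.12 and 0.13 ± 0.12. CYP79F1 had under 0.1 CPM in every group, and MYB29 and MYB76 were listed at 0 in all libraries.

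The indole branch of the same compounds, made from tryptophan, had more genes called higher than lower. Of 8 tested genes of indole glucosinolate and camalexin synthesis, 0 were members; 1 was called lower and 4 higher in vnd123, and 1 lower and 5 higher in vnd7. CYP79B2, which opens the branch, changed by 1.48 ± 0.10 in vnd123 and 1.64 ± 0.10 in vnd7, and its regulator MYB34 by 1.08 ± 0.09 and 1.07 ± 0.09. PAD3, the last step of camalexin synthesis, was the gene called lower, at -0.63 ± 0.13 and -0.82 ± 0.13. The member IGMT2, an indole glucosinolate methyltransferase gene, kept 27.6% and 30.2%, but its gene sequence is 96.6% identical to that of IGMT3 over most of its length and the counts of the pair are uncertain.

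Other P450 and conjugating enzymes completed the metabolic group. All 6 P450 members were called lower in both mutants; over the family, 54 of 162 tested genes (33.3%) were called lower and 36 higher in vnd123, and 46 (28.4%) lower and 46 higher in vnd7. The adjacent genes AT5G36130 and CYP716A2, the latter from a family that oxidises triterpenes, kept 17.0% and 13.8% in vnd123. GSTF14 and GSTU11 were the members among 46 tested glutathione transferase genes. Of the 46, 18 (39.1%) were called lower and 9 higher in vnd123, and 20 (43.5%) lower and 9 higher in vnd7. TPS13, a terpene synthase gene, went from 6.66, 8.28 and 5.05 CPM to 1.19, 0.939 and 0.213 CPM in Col-0 and changed by -4.71 ± 0.48 in vnd123. ST4B, a sulfotransferase gene, kept 24.9% and 30.3%.

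**Figure D3:**
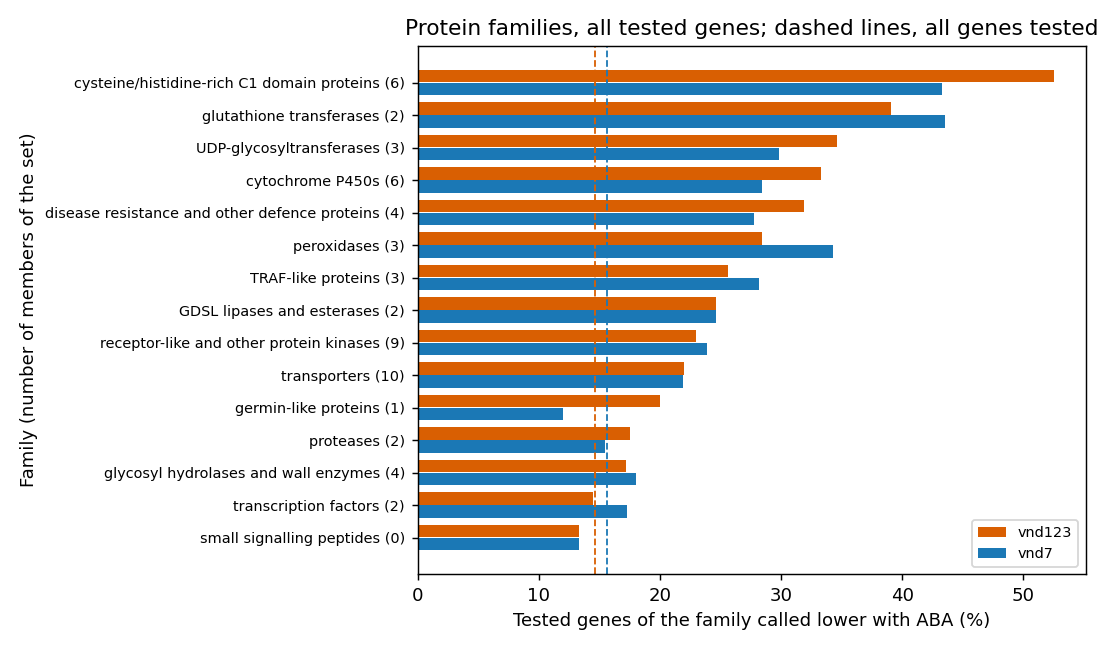
Share of tested genes called lower with ABA (x axis, %) for each protein family in vnd123 and vnd7, with the number of members of each family in brackets; dashed lines give the share over all genes tested, 14.6% in vnd123 and 15.6% in vnd7. The C1 domain family, at 52.5% and 43.3%, has the longest vnd123 bar, and transcription factors lie near the lines.

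Genes for hormone synthesis were among the members. CYP735A2, the enzyme that turns cytokinin precursors into the trans-zeatin form sent from root to shoot, read 22.9, 16.7 and 22.1 CPM in Col-0 mock and 4.37, 2.66 and 3.59 CPM in ABA. It changed by -2.26 ± 0.20 in vnd123 and -2.34 ± 0.21 in vnd7, with edgeR adjusted p of 4.82e-07 and 4.17e-07. IPT3, which makes the first cytokinin precursor and responds to nitrate, read 8.83, 8.07 and 9.65 CPM in mock and 1.8, 1.72 and 2.88 CPM in ABA, and kept 24.7% in vnd123 and 18.2% in vnd7. Of 9 tested cytokinin synthesis genes, a list made after the members' values were seen, 4 were called lower and 1 higher in vnd123, and 5 lower and 0 higher in vnd7. IPT7, at 3.59 CPM in Col-0 mock and 0.939 CPM in ABA, met neither limit of the rule and was no member. IPT7 changed by -2.11 ± 0.32 and -1.58 ± 0.30, while the LOG genes tested, which make the active bases, lay between -0.30 and 0.45.

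ACS5 was the member among the ACC synthase genes, and JAZ4 a member from jasmonate signalling. ACS5 codes for an enzyme that makes the ethylene precursor ACC. It read 9.2, 7.46 and 6.34 CPM in Col-0 mock and 0.815, 1.15 and 1.62 CPM in ABA, and changed by -2.24 ± 0.22 in vnd123 and -2.51 ± 0.22 in vnd7. Its relatives ACS6 and ACS7 were called higher in both mutants, ACS7 by 2.29 ± 0.19 in vnd123 and 2.36 ± 0.19 in vnd7. Among 6 tested ACC synthase genes, again a list made later, 3 were called lower and 2 higher in vnd123 and 2 lower and 2 higher in vnd7. The member AT1G12010, an oxygenase gene whose closest Arabidopsis match in the annotation is ACC oxidase 2, changed by -2.34 ± 0.16 and -2.32 ± 0.16. JAZ4, a repressor of jasmonate responses, read 22.4, 21.9 and 23.7 CPM in Col-0 mock and 3.56, 4.85 and 4.93 CPM in ABA, with no overlap between the treatments in any genotype.

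Transporters were the largest family by number, with 10 members. All 10 were called lower in both mutants, as were nearly all of the 96. AMT1;2, which takes up ammonium into cortex and endodermis cells, read 255.0, 257.0 and 270.0 CPM in Col-0 mock and 42.6, 27.8 and 54.8 CPM in ABA. In vnd123 it read 320.0, 309.0 and 293.0 CPM and 43.7, 65.6 and 50.4 CPM, and in vnd7 264.0, 285.0 and 298.0 CPM and 34.6, 33.9 and 50.0 CPM. Mock libraries agreed closely and ABA libraries varied more, without overlap. The change was -2.48 ± 0.15 in vnd123 and -2.78 ± 0.15 in vnd7, with edgeR adjusted p of 1.05e-08 and 3.4e-09. The other ammonium transporter genes with enough reads, AMT1;3 and AMT2;1, were also called lower, at -1.10 ± 0.13 and -0.93 ± 0.10 in vnd123; AMT1;1, AMT1;4 and AMT1;5 had under 0.2 CPM in every group. How the counting treated reads of overlapping loci is not known here, so such low values are uncertain.

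Other nutrient uptake genes moved both ways. Of 16 genes for nitrogen, phosphate and sulphate uptake, AMT1;2 was the single member and 13 could be tested; 5 were called lower and 7 higher in vnd123, and 5 lower and 5 higher in vnd7. The nitrate transporter gene NRT2.1 changed by -1.14 ± 0.33 in vnd123 and -2.28 ± 0.35 in vnd7. The nitrate reductase gene NIA1 changed by 1.55 ± 0.22 and 1.60 ± 0.23, and the phosphate transporter gene PHT1;4 by 1.21 ± 0.10 in each mutant.

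The remaining transporter members carry peptides, sugars, amino acids and other solutes. PTR3, a peptide transporter gene, read 9.47, 11.5 and 7.84 CPM in Col-0 mock and 0.716, 0.183 and 0.555 CPM in ABA, and changed by -4.83 ± 0.25 in vnd123 and -3.69 ± 0.22 in vnd7. SWEET16, a sugar carrier of the vacuole membrane, kept 11.3% in vnd123 and 17.1% in vnd7, the polyol transporter gene PMT6 13.1% and 16.8%, and UMAMIT17, of a family of amino acid exporters, 30.6% and 30.5%. AT2G28780, annotated as an efflux pump subunit, read 201.0, 197.0 and 178.0 CPM in Col-0 mock and 62.3, 31.0 and 44.5 CPM in ABA. Over the family, 170 of 772 tested genes (22.0%) were called lower and 205 higher in vnd123, and 169 (21.9%) lower and 210 higher in vnd7.

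Genes of iron uptake were high in mock and among the most variable members. IRT1 codes for the iron importer of the root epidermis and FRO2 for the reductase that supplies it with ferrous iron. IRT1 read 445.0, 368.0 and 214.0 CPM in Col-0 mock and 68.0, 35.4 and 86.8 CPM in ABA. In vnd123 it read 235.0, 122.0 and 131.0 CPM and 25, 43.0 and 20.9 CPM, and in vnd7 410.0, 263.0 and 229.0 CPM and 18, 15.2 and 8.3 CPM. The treatments did not overlap in any genotype, though the mock libraries within each genotype varied widely. The change was -2.41 ± 0.34 in vnd123, with an edgeR adjusted p of 5.66e-05, and -4.38 ± 0.37 in vnd7, with 2.68e-07.

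FRO2 and CYP82C4, a P450 gene of the synthesis of iron-mobilising coumarins, followed the same libraries. For IRT1, FRO2 and CYP82C4 alike, the highest library was replicate 1 in each mock group, replicate 3 in Col-0 ABA, replicate 2 in vnd123 ABA and replicate 1 in vnd7 ABA. FRO2 kept 22.9% in vnd123 and 5.26% in vnd7, and CYP82C4 kept 21.3% and 3.27%. The SD of IRT1, as a percentage of the mean, was 34.4% among the Col-0 mock libraries and 38.8% among those of vnd123, against medians of 11.9% and 12.5% over the members. MYB10, a transcription factor gene that acts with MYB72 in growth at low iron, was also a member and kept 40.6% in vnd123 and 14% in vnd7, but a gene on the opposite strand that overlaps it had 5651 reads in Col-0 mock against its 731.

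**Figure D4:**
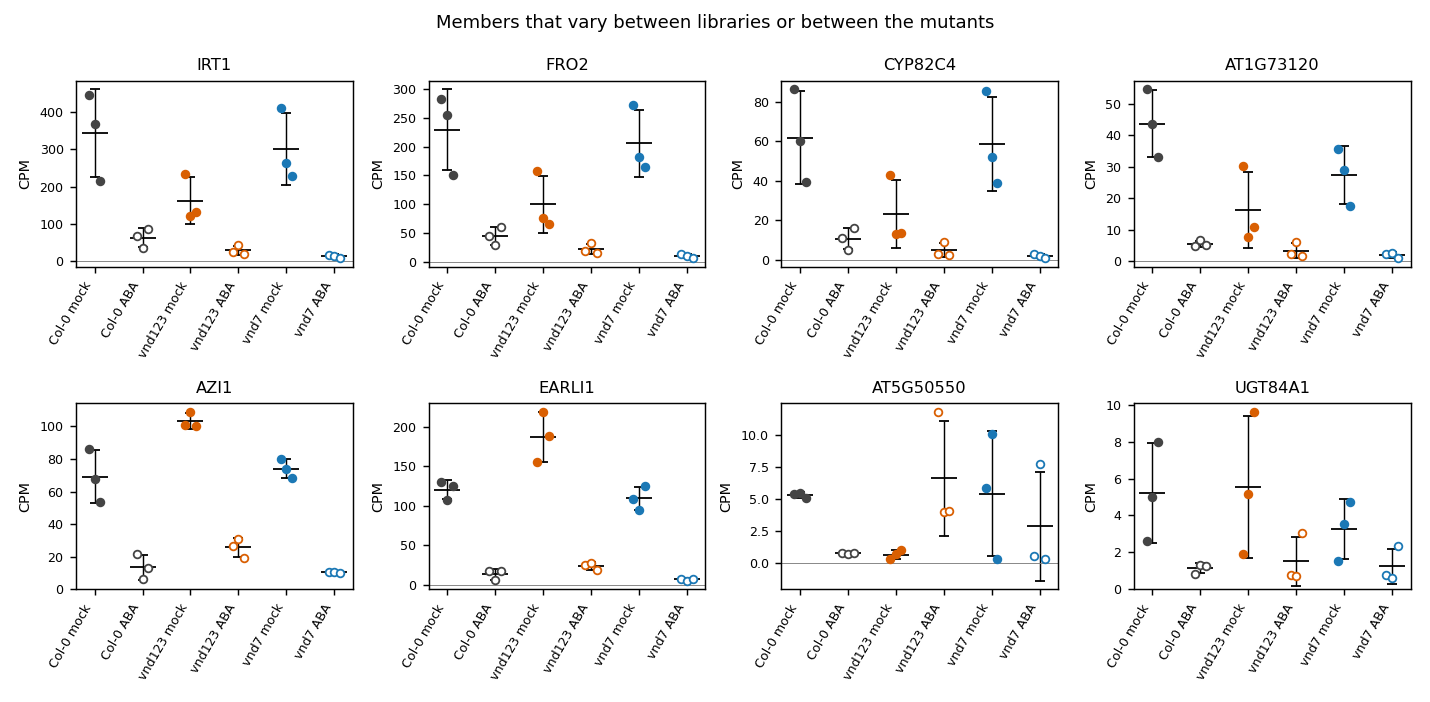
CPM in each of the 18 libraries (points; filled, mock; open, ABA) with the mean and SD (bars, n = 3) for 8 members. IRT1, FRO2, CYP82C4 and AT1G73120 vary within the mock groups, AZI1 and EARLI1 are lower in vnd7 ABA than in vnd123 ABA, and AT5G50550 and UGT84A1 have overlapping treatments in vnd7.

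The member with the most reads was AT5G26280, for a TRAF-like protein with no role given in the annotation. CPM are not divided by gene length, so this order is of reads and not of transcripts. It read 980.0, 890.0 and 833.0 CPM in Col-0 mock and 230.0, 179.0 and 195.0 CPM in ABA. In vnd123 it read 1060.0, 1110.0 and 909.0 CPM and 206.0, 212.0 and 178.0 CPM, and the change was -2.33 ± 0.10 in vnd123 and -2.35 ± 0.10 in vnd7, with edgeR adjusted p of 2.35e-10 and 1.75e-10. Its near neighbour AT5G26320, with 3 genes between them, and AT3G20380 are the other TRAF-like members. Of 39 tested TRAF-like genes, a family looked at after the values were seen, 10 (25.6%) were called lower and 4 higher in vnd123. In vnd7, 11 (28.2%) were called lower and 4 higher.

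**Figure D5:**
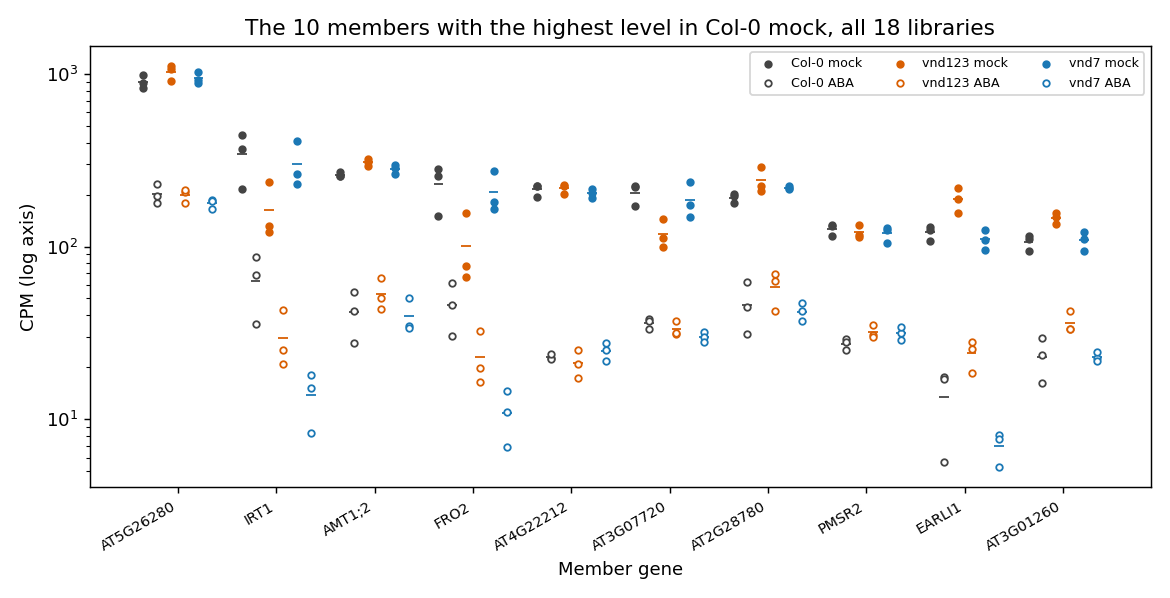
CPM (log axis) in all 18 libraries for the 10 members with the highest CPM in Col-0 mock; filled points are mock, open points ABA and short lines group means (n = 3). In every gene the open points lie below the filled points of the same genotype, and for IRT1, FRO2, EARLI1 and AT3G01260 the vnd7 ABA libraries lie wholly below those of vnd123 ABA.

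Genes for C1 domain proteins, a cysteine- and histidine-rich zinc-binding fold, formed a group of 6 members. AT5G40590 fell deepest, from 17.0, 17.4 and 14.5 CPM to 0.618, 0.0783 and 0.939 CPM in Col-0, and changed by -4.56 ± 0.30 in vnd123 and -4.01 ± 0.28 in vnd7. AT3G13760 read 31.4, 34.2 and 29.2 CPM in mock and 6.52, 5.84 and 6.04 CPM in ABA, with no overlap in any genotype. The adjacent pair AT1G44030 and AT1G44050 kept 4.6% and 17.3% in vnd123. Over the family, also looked at after the values were seen, 63 of 120 tested genes (52.5%) were called lower and 10 higher in vnd123, and 52 (43.3%) lower and 11 higher in vnd7, with medians of -0.44 and -0.38.

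Wall and extracellular proteins and regulators made up smaller groups. The germin-like cupin gene AT5G38940 read 76.2, 73.0 and 62.7 CPM in Col-0 mock and 2.77, 2.5 and 3.09 CPM in ABA and changed by -4.32 ± 0.21 in vnd123 and -4.66 ± 0.21 in vnd7. GSL09, of the callose synthase family, and the glycosyl hydrolase gene AT4G18340 kept 5.27% and 23.6% in vnd123. All 4 wall-enzyme members were called lower in both mutants, whereas over that family more genes were called higher than lower (127 against 64 of 373 in vnd123, and 130 against 67 in vnd7). Transcription factors gave 2 members of 1057 tested, MYB10 and the bHLH gene AT2G43140, which went from 22.1, 17.5 and 21.5 CPM to 1.31, 0.757 and 0.704 CPM and changed by -4.43 ± 0.19 and -4.75 ± 0.19.

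Other members belong to small families or to none. PMSR2, a methionine sulfoxide reductase gene that repairs oxidised proteins, read 132.0, 134.0 and 115.0 CPM in Col-0 mock and 29.1, 25 and 28.0 CPM in ABA and kept 26.4% in each mutant. GOX2, for the photorespiratory enzyme glycolate oxidase, kept 14.3% in vnd123 and 11% in vnd7. The metacaspase gene MC2 kept 16.3% and 16.1%. By words in their descriptions, 57 members fell into one of 14 families and 39 into none.

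Few members were called different between the mutants in ABA, and AZI1 and EARLI1 led them. These adjacent genes on chromosome 4 code for lipid-transfer-like proteins; AZI1 takes part in the priming of systemic immunity. AZI1 read 26.8, 30.9 and 19.2 CPM in vnd123 ABA and 10.5, 10.5 and 10.1 CPM in vnd7 ABA, and EARLI1 read 25.6, 28.1 and 18.6 CPM and 8.07, 5.29 and 7.72 CPM. The mutants did not overlap in either gene, and the Col-0 ABA libraries, at 6.11 to 21.5 CPM for AZI1 and 5.64 to 17.5 CPM for EARLI1, reached into the ranges of both mutants for AZI1 but into that of vnd7 alone for EARLI1. vnd123 was higher than vnd7 by 1.32 ± 0.13 (log2) for AZI1 and 1.78 ± 0.18 for EARLI1, each with an edgeR adjusted p of 8.19e-05. In mock EARLI1 read 156.0, 219.0 and 188.0 CPM in vnd123 and 109.0, 95.5 and 125.0 CPM in vnd7, a difference of 0.79 ± 0.16 with an adjusted p of 0.0521, which passed the threshold in 7 of the alternatives.

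In all, 4 members were called higher and 0 lower in vnd123 than in vnd7 under ABA, against 0.154% and 0.487% of all genes, or 0.642% in either direction. The others were AT3G01260, of a galactose mutarotase-like family, at 0.67 ± 0.11 with an adjusted p of 0.00907, and JAZ4, at 0.79 ± 0.16 with 0.0299. At an unadjusted edgeR p under 0.05 there were 26 members (27.1%), against 9.81% of all genes tested. Of these 26 members, 22 were higher in vnd123. The call of AT3G01260 was lost without vnd7 ABA replicate 2 and with all 18 libraries in 1 model (adjusted p up to 0.0587 over the alternatives), and that of JAZ4 without vnd123 ABA replicate 2 or 3 or vnd7 ABA replicate 1 or 2 (up to 0.148). In mock, 1 member was called higher and 1 lower in vnd123, against 0.0338% and 0.391% of all genes, or 0.425% in either direction. AT1G44030 was higher in vnd123, at 6.42, 5.87 and 5.28 CPM against 2.18, 2.4 and 1.91 CPM in vnd7 (1.45 ± 0.24, adjusted p 0.00984), and the amino acid transporter gene AT5G38820 lower, at 2.99, 2.9 and 3.33 CPM against 6.12, 5.67 and 5.41 CPM (-0.88 ± 0.18, adjusted p 0.0414). The call of AT1G44030 was lost without vnd123 mock replicate 1 or 2 or vnd7 mock replicate 3, and that of AT5G38820 without any 1 of the 6 mock libraries or vnd7 ABA replicate 1, with adjusted p up to 0.0638 and 0.217 over the alternatives. Col-0 mock read 4.76 to 5.49 CPM and 4.44 to 6.61 CPM for these genes. AT3G01260 and JAZ4 were not called in mock, though neither overlapped between the mutants there. AT3G01260 read 148.0, 157.0 and 135.0 CPM in vnd123 mock against 121.0, 94.1 and 111.0 CPM in vnd7 mock. JAZ4 read 23.4, 27.3 and 24.0 CPM against 20.6, 22.0 and 23.0 CPM.

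The size of the ABA response was not shown to differ between the mutants for any member. In edgeR's test of the difference of responses, 0 of 20720 genes (0.0%) were called. At an unadjusted p under 0.05 there were 943 genes (4.55%) and 17 members (17.7%), 15 of which had the higher log2 change in vnd123, and DESeq2 called 18 genes, 3 of them members (AZI1, EARLI1 and MYB10). The smallest p among members were those of MYB10, with a difference of 1.51 ± 0.32 (unadjusted p 0.000323), AZI1, with 0.81 ± 0.18 (0.000522), and FRO2, with 2.1 ± 0.48 (0.000603), each with an edgeR adjusted p of 0.596. IRT1 and CYP82C4 differed by 1.97 ± 0.47 and 2.64 ± 0.80, with adjusted p of 0.698 and 0.966. On simulated counts this test found 26.9% of the planted 1.5-fold differences, 89.6% of those of 2-fold and 100% of those of 4-fold size. Those differences were planted only in genes above a set mean level, with the same starting level in every group. Many members had far fewer reads in ABA, so these rates cannot be carried over to them. IRT1, FRO2 and CYP82C4 varied more than most members between libraries.

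A few members did not hold in the mutants. AT5G50550, annotated as a WD40 repeat protein, read 5.38, 5.47 and 5.07 CPM in Col-0 mock and 0.815, 0.678 and 0.811 CPM in ABA. In vnd123 it read 0.315, 0.682 and 0.985 CPM in mock and 11.8, 3.98 and 4.06 CPM in ABA, and in vnd7 5.86, 10.1 and 0.305 CPM and 0.519, 7.74 and 0.292 CPM. The order of the treatments was turned in vnd123 and mixed in vnd7, where the gene was called lower without ABA replicate 2. The change was 3.38 ± 1.12 in vnd123, with an edgeR adjusted p of 0.0321, lost without vnd123 ABA replicate 1 or any vnd123 mock library (up to 0.12). A second locus, AT5G50650, has an identical gene sequence, so reads of the pair cannot be assigned with certainty.

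AT1G25098 and UGT84A1 are the other exceptions. AT1G25098, a non-coding locus with near-identical copies at 3 other loci, read 10.5, 4.26 and 10.8 CPM in Col-0 mock and 4.67, 1.46 and 0.128 CPM in ABA and was called in neither mutant. UGT84A1, which joins glucose to hydroxycinnamic acids, read 2.61, 5.0 and 8.0 CPM in Col-0 mock and 0.815, 1.3 and 1.26 CPM in ABA. It read 1.93, 5.15 and 9.6 CPM in vnd123 mock and 0.744, 0.731 and 3.06 CPM in ABA, so the treatments overlapped. It changed by -1.86 ± 0.64 in vnd123, with an edgeR adjusted p of 0.0388, and by -1.34 ± 0.65 in vnd7, with 0.137. The vnd123 call was lost with DESeq2 and without vnd123 ABA replicate 1 or 2, vnd123 mock replicate 2 or 3 or vnd7 mock replicate 2. The adjusted p reached 0.205 over the alternatives. UGT84A1 was called in vnd7 with the replicate block and without vnd7 ABA replicate 3. Within each replicate number, the ABA library was below the mock library in all 3 genotypes. Without the 3 members that have a near-identical copy and the 8 that overlap a locus with more than 10% of their own reads (RBOHB, AT1G10400, MYB10, AT3G20380, AT3G50010, TPS13, UGT84A1 and AT5G44574), 85 members remained, and all 85 were called lower in both mutants.

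Few members lay next to each other, and none was a marker gene of a cell type. There were 6 pairs at most 5 places apart in the order of protein-coding genes, made up of 12 members. Chromosomes 1 to 5 carried 32, 4, 21, 17 and 22 members. The marker lists covered root hair and epidermis, root cap, cortex, endodermis, xylem, phloem, meristem and shoot. The summed CPM of the 2 cortex markers went from 32.7 to 34.6 in Col-0 mock to 14.6 to 21.7 in ABA, and 1 of 2 was called lower in vnd123 and 2 of 2 in vnd7. The summed CPM of the 4 shoot markers went from 58.5 to 74.4 to 35.5 to 47.1, with 2 of 3 tested called lower in vnd123 and 1 of 3 in vnd7. The 7 xylem markers went from a sum of 382 to 429 CPM in Col-0 mock to 574 to 670 CPM in ABA, with 6 called higher in each mutant. Of the other markers, 5 of 9 root hair and epidermis genes and 2 of 4 root cap genes were called higher in vnd123. There 1 of 5 phloem genes was called lower, and 0 of 7 endodermis and 0 of 3 meristem genes were called. In vnd7, 6 root hair and epidermis genes, 1 root cap gene and 1 phloem gene were called higher, 1 endodermis gene higher and 1 lower, and 1 meristem gene lower. The part of any of these shifts in the members' fall was not tested.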

How the data were processed

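Gene counts from 18 root libraries were used as deposited: whole-number counts of reads per gene, not normalized by the authors. The submitters' processing notes name HISAT2 and HTSeq; versions, counting options and genome build were not given in the sources used here. Per the labels, the kit reads 150 bases from both ends, and the kit named there does not mark strand. Totals ran from 38325491 to 58705802 per library. Replicates differed by more than sampling noise (chi-square per degree of freedom 8.87 to 30.6). The table has 1385 rows that are no locus (at most 0.00106% of counts), which were left out. 32548 of 32833 loci were found in RefSeq's TAIR10.1, which gave names and neighbours.

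Members, families and lists were chosen with earlier results of these data known. Levels are CPM on column totals, as mean ± SD with n = 3. Tests used the 12 mutant libraries in edgeR 4.0.16 (R 4.3.3), with filterByExpr by group, TMM scaling and 1 coefficient per group. P-values were adjusted by Benjamini-Hochberg over 20720 genes, and changes are log2 ± SE. In simulated counts for the vnd123 response to ABA, 76.1% of 1.5-fold and 100% of 2-fold changes were found. The planted genes were above a set mean level, so the rates do not describe members with few reads in ABA. Named genes were those highest in Col-0 mock, lowest in ratio, next to the limit, not called lower, called between mutants, or highest in a family. Genes outside that rule that are named for their role were chosen after their values were seen. Alternatives were DESeq2 1.42.0, RLE or no scaling, no filter, a replicate block, all 18 libraries and leaving out each library. Copies (at least 95% identity over at least 50% of the length of the annotated gene sequence) were sought with blastn 2.17.0.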

Additional observations from a re-analysis of the deposited data

Results flagged for a closer look

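AT5G50550 moved in opposite directions in Col-0 and vnd123. In Col-0 all 3 ABA libraries lay below all 3 mock libraries and 14.5% of the mock mean was left, while in vnd123 all 3 ABA libraries lay above all 3 mock libraries, at 1000% of the mock mean. The difference between these genotypes was not tested, because the Col-0 values chose the gene. Its gene sequence is identical to that of AT5G50650.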

How the results depend on the processing

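The members called lower in vnd123 numbered 93 to 94 and in vnd7 93 to 94 under every alternative run, leaving out each library included. The members at 25% or less numbered 71 to 79 in vnd123 and 83 to 86 in vnd7 when a library was left out. With TMM-scaled CPM they numbered 69 in vnd123 and 81 in vnd7. The rule itself gave 89 to 105 genes without 1 Col-0 library, and 82 with TMM-scaled CPM, all of them among the 96. Members called between vnd123 and vnd7 under ABA were 4, but 7 with no filter on low counts, 12 with DESeq2 and 2 to 6 when a library was left out. In mock they were 2, but 7 with DESeq2, 1 with the replicate block and 0 to 4 when a library was left out. In the difference of responses they were 0, but 3 with DESeq2 and 0 to 1 when a library was left out. The cause of these shifts was not tested. No log2 change of a member turned its sign with a call. Over all genes, replicate numbers showed little sign of pairing, though this cannot exclude it. The correlations of 18 same-numbered pairs ran from -0.101 to 0.161, 3 were over 0.1, and 7 of 12 libraries correlated best with their own number. Some members did follow the number: PMT6 was highest in replicate 1 and lowest in replicate 3 in all 6 groups. With the replicate block 94 members were called lower in each mutant, UGT84A1 in vnd7 among them, and AT5G38820 was no longer called between the mutants in mock. Without scaling, the balance of all genes called turned in both mutants: 3005 higher and 4291 lower in vnd7, against 3535 and 3232, and 3024 higher and 3696 lower in vnd123, against 3493 and 3035. Depth limits the deepest falls, where ABA groups held as few as 8 reads.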

Other observations

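Outside the members and the 6 genes left out by name, 2 genes with at least 5 CPM in the mock of both mutants were at 25% or less of mock in each. UMAMIT26, of the amino acid exporter family, had 6.18 CPM in Col-0 mock and kept 34.2% there, 24.9% in vnd123 and 17.9% in vnd7. HDK, annotated as a myosin, missed the CPM limit with 4.6 CPM in Col-0 mock and kept 7.66%, 2.88% and 7.71%. Of the genes with at least 5 CPM in vnd123 mock and 25% or less of it in ABA, the 6 named genes left out, 75 of 90 were members (83.3%). By the same limits in vnd7, 81 of 102 were (79.4%).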
